A study of Mus musculus with 7 samples.

Results

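The 9 matricellular and wound matrix genes described here were measured across 7 RNA-seq libraries of mouse hindlimb tendon: Postn, Tnc, Tnn, Sparc, Thbs1, Thbs2, Thbs3, Fn1 and Tgfbi. They were chosen by symbol as the periostin, tenascin, thrombospondin, fibronectin and related genes, 9 of 44818 features in the files, and all 9 were among the 16028 that passed the filter on low counts. Tnn passed it only through the libraries in which it was high. The choice rested on levels compared between these same groups, so differences of the 9 genes between groups are given as a description. No p-value of a single one is printed, and counts of the 9 past a threshold support nothing. Such counts stand beside the share of all genes past it, except under some alternative settings, for which no share is given.

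The study examined inappropriate bone and cartilage formation in soft tissue after musculoskeletal injury (heterotopic ossification) and the part of TGF-β activated kinase 1 in it. All mice had a C57BL/6 background, and sex and age were not given in the labels used here. In the injured mice, a metal block heated to 60 °C was pressed for 18 s onto the back to burn 30% of the body surface, and the Achilles tendon of one hindlimb was cut at its midpoint. The tenotomy libraries (n = 2) came from the cut tendon 3 weeks after injury. The contralateral libraries (n = 3) came from the intact opposite hindlimb of burned and cut mice at 3 weeks, so they share the burn with the tenotomy group. The uninjured libraries (n = 2) came from mice that received neither burn nor tenotomy. No label ties a library to a separate animal, so the spread between libraries of a group may be partly technical.

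Matricellular proteins are secreted into the extracellular matrix, where they bind collagens, growth factors and cell surface receptors and alter how cells attach, migrate and assemble matrix, rather than bearing load themselves. Most are abundant in development, scarce in adult tissue and made again in wounds. Fibronectin is a structural glycoprotein of the provisional wound matrix, and periostin, the tenascins, the thrombospondins and SPARC associate with it or with the collagen laid down on it. TGFBI is a secreted, collagen-binding protein built of the same fasciclin domains as periostin.

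Total estimated counts ranged from 25927171 to 36725106 per library, and 5 features took between 76.4% and 81.4% of them, which left 4934057 to 8375626 counts for all other genes. The library labelled uninjured replicate 1, called by that label below, stood apart from its group. Its Euclidean distance over log2 CPM, a level adjusted for library size, was 59.6 and 61.1 to the tenotomy libraries but 114.0 to uninjured replicate 2. Uninjured replicate 2 lay 64.5 to 67.4 from the contralateral libraries. The tenotomy libraries were close to each other. The chi-square of their counts per degree of freedom, for which sampling noise alone gives about 1, was 1.61, against 4.37 to 8.34 between contralateral libraries. Of 15044 genes, 7.58% differed between the tenotomy libraries past an unadjusted 0.05, where sampling alone gives 5%. They were kept as 2 samples, as labelled. An excess over sampling noise does not show separate animals or separate RNA, so an SD or SE with n = 2 may be technical, and whether both came from 1 RNA sample was not tested. Uninjured replicate 1 gave 3.04 and 3.24 against the tenotomy libraries, also less than any contralateral pair. Its profile thus went against its label, and whether the label is right was not tested. Every comparison with the uninjured group is therefore given with and without uninjured replicate 1, and counts of calls are also given with the tenotomy libraries summed into 1 sample.

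Alternative exons of Fn1, Postn and Tnc are printed first, because their inclusion is the readout of these genes that the choice of members did not use. Each sequence is from the GENCODE M21 transcripts (GRCm38), in the sense of the mRNA, with the alternative exon in capitals and the adjoining bases of the flanking exons in lower case. All are coding exons whose length is a multiple of the codon. The Fn1 exons are the extra domains A (exon 33 of 46, 270 bases, chr1:71603660-71603929, minus strand) and B (exon 25 of 46, 273 bases, chr1:71613763-71614035, minus strand), whole fibronectin type III repeats typical of cell-made rather than plasma fibronectin. The Postn exons lie in the C-terminal region (exon 17 of 22, 81 bases, chr3:54380412-54380492, plus strand, and exon 20 of 22, 84 bases, chr3:54385671-54385754, plus strand). Their numbers were counted in different transcripts, and the transcript used for exon 20 skips exon 17. The 84-base exon called exon 20 here can therefore have a higher number in a transcript that carries both. The Tnc exon (exon 14 of 26, 273 bases, chr4:63984460-63984732, minus strand) is 1 of the alternatively spliced repeats of tenascin-C.
Fn1 exon 33: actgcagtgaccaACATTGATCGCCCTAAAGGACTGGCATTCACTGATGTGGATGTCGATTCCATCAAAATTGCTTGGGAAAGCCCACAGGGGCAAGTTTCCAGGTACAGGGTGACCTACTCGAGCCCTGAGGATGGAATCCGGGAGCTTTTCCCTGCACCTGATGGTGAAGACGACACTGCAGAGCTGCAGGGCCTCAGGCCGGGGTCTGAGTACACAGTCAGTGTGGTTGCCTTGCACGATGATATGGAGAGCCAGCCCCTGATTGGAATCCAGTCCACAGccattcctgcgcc
Fn1 exon 25: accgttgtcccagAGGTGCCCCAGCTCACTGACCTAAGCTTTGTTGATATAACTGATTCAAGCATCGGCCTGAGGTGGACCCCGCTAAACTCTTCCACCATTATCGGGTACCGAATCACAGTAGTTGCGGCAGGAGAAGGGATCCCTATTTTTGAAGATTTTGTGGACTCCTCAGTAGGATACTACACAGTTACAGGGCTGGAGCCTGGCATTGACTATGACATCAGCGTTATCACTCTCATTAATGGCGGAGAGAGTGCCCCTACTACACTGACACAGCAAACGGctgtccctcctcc
Postn exon 17: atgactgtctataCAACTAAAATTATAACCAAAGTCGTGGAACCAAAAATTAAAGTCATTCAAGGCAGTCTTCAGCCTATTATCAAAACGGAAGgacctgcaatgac
Postn exon 20: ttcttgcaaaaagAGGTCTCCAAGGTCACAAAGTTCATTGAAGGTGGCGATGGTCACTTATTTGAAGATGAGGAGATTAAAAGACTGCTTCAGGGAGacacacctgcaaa
Tnc exon 14: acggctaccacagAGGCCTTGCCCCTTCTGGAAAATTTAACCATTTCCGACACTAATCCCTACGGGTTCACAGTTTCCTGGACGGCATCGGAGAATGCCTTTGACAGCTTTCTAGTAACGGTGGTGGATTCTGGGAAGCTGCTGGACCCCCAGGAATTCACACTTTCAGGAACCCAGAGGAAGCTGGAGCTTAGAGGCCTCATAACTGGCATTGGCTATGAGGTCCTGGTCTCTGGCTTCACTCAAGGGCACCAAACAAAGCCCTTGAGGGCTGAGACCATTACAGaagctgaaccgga

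Postn encodes periostin, a collagen-binding protein of periosteum, tendon and healing wounds (chromosome 3, 54361109 to 54391037, plus strand). Its level was 8.96, 11.1 and 8.23 CPM in the contralateral libraries, 382 and 392 CPM in the tenotomy libraries, 278 CPM in uninjured replicate 1 and 13.7 CPM in uninjured replicate 2. Both tenotomy libraries and uninjured replicate 1 were high, the other 4 were low, and tenotomy and contralateral values did not overlap. The tenotomy mean was 41.1-fold the contralateral mean, with a fitted log2 fold change of 5.36 (SE 1.01). Fewer cells of a type and less RNA per cell cannot be told apart in bulk tissue, here or in any value below.

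All 9 genes were higher at the tenotomy site than in contralateral tendon by the edgeR quasi-likelihood test at an adjusted p under 0.05, where 13.6% of the 16028 genes tested were called higher. In all 9 genes every tenotomy library lay above every contralateral library, as it did in 31.9% of genes tested. Counts of the 9 genes were fixed in part by how the genes were chosen, and nothing is read from them in this comparison or in those with the uninjured group. No share of all genes is given for the changed fits that follow in this paragraph. The related genes described later also lost their calls without any 1 contralateral or tenotomy library. The median log2 fold change of the 9 was 2.74, against -0.0012 over all genes tested. The calls turned on the libraries used, and 0 of the 9 were called when any 1 contralateral library was left out. Without contralateral replicates 1, 2 and 3 the log2 fold change of Postn was 5.32, 5.49 and 5.27, against 5.36 with all libraries. That of Sparc was 1.84, 1.78 and 1.68, against 1.77, and that of Tnn 6.97, 9.09 and 6.97, against 7.36. Without tenotomy replicates 1 and 2 Postn was at 5.38 and 5.33 and Sparc at 1.76 both times. With either uninjured library left out Postn was at 5.36.

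**Figure D1:**
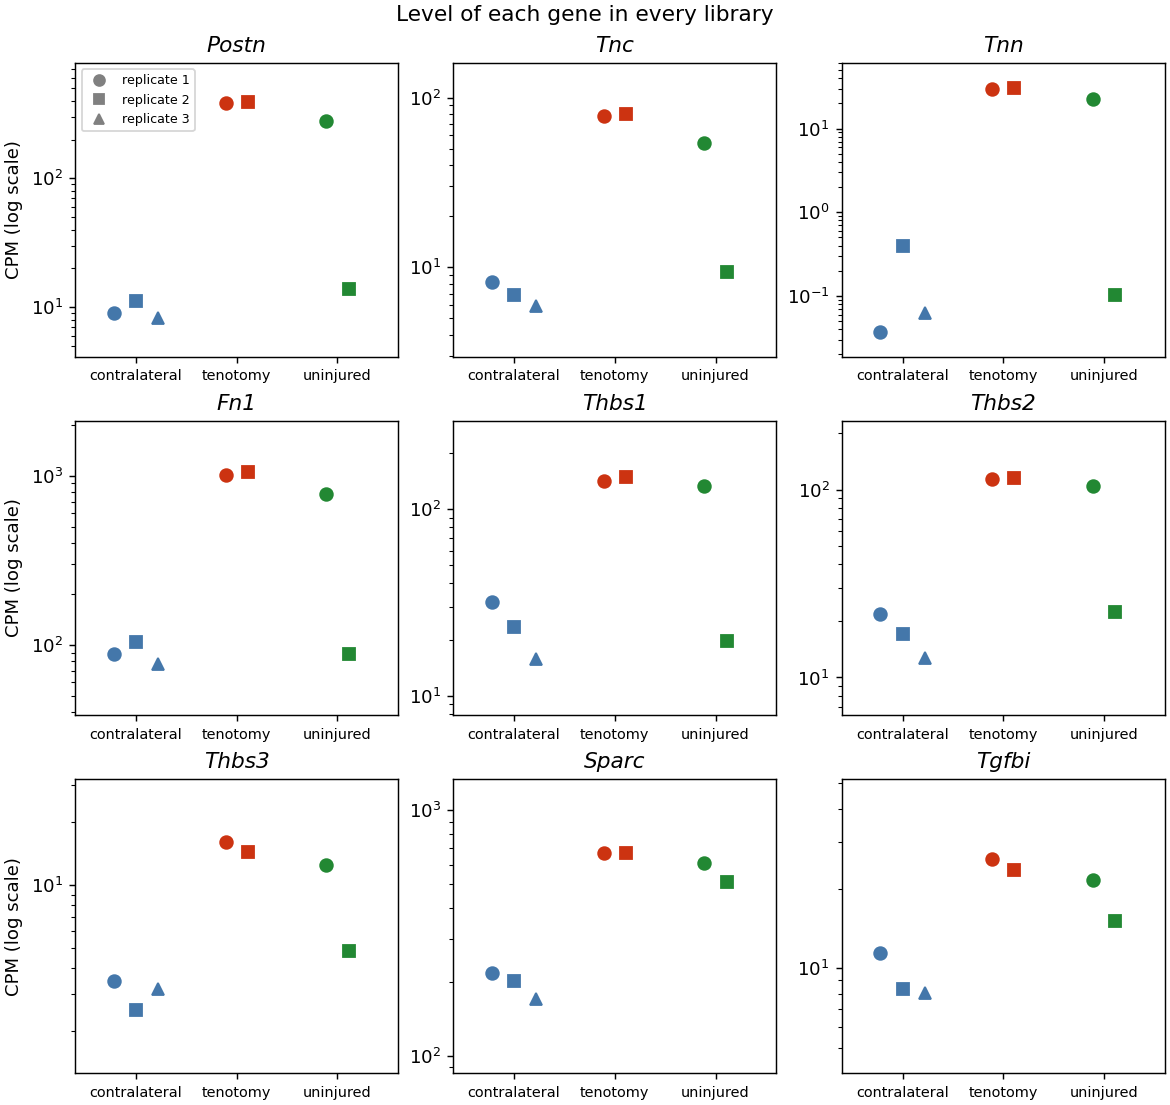
Level of each of the 9 genes in CPM (log scale) in every library, with 1 point per library and the marker shape giving the replicate number within its group. Postn stands at 382 and 392 CPM in the tenotomy libraries and at 8.23 to 11.1 CPM in contralateral ones, and in all panels uninjured replicate 1 sits closer to the tenotomy libraries than uninjured replicate 2 does.

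Tnc and Tnn encode tenascin-C and tenascin-N (also called tenascin-W), large multi-armed glycoproteins that modulate adhesion to fibronectin; tenascin-C is known from developing and stressed tendon and tenascin-N from bone-forming tissue. Tnc (chromosome 4, 63959785 to 64047015, minus strand) was at 8.21, 6.86 and 5.94 CPM in contralateral libraries and at 77.5 and 79.9 CPM in tenotomy libraries, with 54.3 and 9.39 CPM in uninjured replicates 1 and 2. The groups did not overlap, and the tenotomy mean was 11.2-fold the contralateral mean (log2 3.49, SE 0.61). Tnn (chromosome 1, 160085029 to 160153580, minus strand) had 1, 14 and 2 counts in the contralateral libraries against 1087 and 908 in the tenotomy libraries, and 619 and 3 in uninjured replicates 1 and 2. It was thus close to absent in the 4 libraries where it was low and ranged from 22.2 to 30.3 CPM in the other 3. The fitted log2 fold change was 7.36 (SE 1.62) and rests on few contralateral counts: without contralateral replicate 2, which held most of them, it was 9.09. The tenascin relatives Tnr and Tnxb did not pass the test (log2 fold changes -0.58, SE 0.26, and -0.13, SE 0.20, edgeR adjusted p = 0.123 and 0.662).

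Fn1, fibronectin (chromosome 1, 71585520 to 71653200, minus strand), was at 88.6, 103.4 and 77.1 CPM in the contralateral libraries, 1008 and 1051 CPM in the tenotomy libraries, and 775.0 and 88.7 CPM in uninjured replicates 1 and 2. The tenotomy mean was 11.5-fold the contralateral mean (log2 3.52, SE 0.73), and uninjured replicate 2 lay inside the contralateral range. The ratio of Tnc to Fn1 changed little, with 0.0663 to 0.0927 Tnc counts per Fn1 count in contralateral, 0.0761 and 0.0769 in tenotomy, and 0.0700 and 0.106 in uninjured replicates 1 and 2. Postn did not keep its ratio to Fn1, which was 0.101 to 0.107 in contralateral libraries, 0.373 and 0.379 in tenotomy libraries, 0.359 in uninjured replicate 1 and 0.155 in uninjured replicate 2. These ratios are within a library, so they do not depend on how libraries were scaled.

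The 3 thrombospondins are calcium-binding, multi-domain glycoproteins; thrombospondins 1 and 2 are trimers known for inhibiting vessel growth, and thrombospondin 1 also activates latent TGF-β, whereas thrombospondin 3 forms pentamers like COMP. Thbs1 (chromosome 2, 118111876 to 118127133, plus strand) was at 31.7, 23.5 and 15.8 CPM in contralateral libraries, 140.8 and 147.9 CPM in tenotomy libraries, and 132.7 and 19.8 CPM in uninjured replicates 1 and 2. Thbs2 (chromosome 17, 14665500 to 14694235, minus strand) was at 21.8, 17.1 and 12.6 CPM, then 113.3 and 115.7 CPM, then 103.9 and 22.3 CPM in the same order. Both genes thus varied within the contralateral group but remained far below the tenotomy level there. Thbs3 (chromosome 3, 89215180 to 89226837, plus strand) was at 2.53 to 3.49 CPM in contralateral libraries, 16.0 and 14.4 CPM in tenotomy libraries, and 12.5 and 4.82 CPM in uninjured replicates 1 and 2. The tenotomy means were 6.10-fold (Thbs1), 6.66-fold (Thbs2) and 4.95-fold (Thbs3) the contralateral means, with log2 fold changes of 2.61 (SE 0.67), 2.74 (SE 0.56) and 2.31 (SE 0.36). Thbs1 and Thbs2 moved together: there were 1.25 to 1.45 Thbs1 counts per Thbs2 count in contralateral libraries, 1.24 and 1.28 in tenotomy libraries and 1.28 in uninjured replicate 1. Uninjured replicate 2, at 0.884, lay below the other 6 libraries.

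Sparc encodes osteonectin, a collagen chaperone abundant in bone, tendon and other collagen-producing tissue (chromosome 11, 55394500 to 55423183, minus strand). It was at 216.9, 201.5 and 170.6 CPM in the contralateral libraries, 669.5 and 668.1 CPM in the tenotomy libraries, and 612.2 and 511.5 CPM in uninjured replicates 1 and 2. Here both uninjured libraries were high, and the contralateral libraries stood alone at the low end. Tgfbi (chromosome 13, 56609523 to 56639562, plus strand) had the smallest fold of the 9, with 8.04 to 11.4 CPM in contralateral, 25.9 and 23.5 CPM in tenotomy, and 21.5 and 15.1 CPM in uninjured replicates 1 and 2. Again neither uninjured library overlapped the contralateral range. The tenotomy means were 3.41-fold (Sparc) and 2.66-fold (Tgfbi) the contralateral means (log2 1.77, SE 0.22, and 1.42, SE 0.22). Postn counts per Sparc count were 0.0413 to 0.0549 in contralateral, 0.570 and 0.587 in tenotomy, 0.455 in uninjured replicate 1 and 0.0268 in uninjured replicate 2.

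Levels of different genes were compared as TPM, which is scaled by transcript length. At the tenotomy site the order was Sparc (46.9 TPM ± 3.65, SD, n = 2), Fn1 (22.7 ± 1.62), Postn (19.0 ± 1.69), Thbs1 (3.62 ± 0.459), Thbs2 (2.76 ± 0.260), Tnc (1.59 ± 0.173), Tgfbi (1.39 ± 0.0100), Thbs3 (1.04 ± 0.201) and Tnn (0.736 ± 0.0705). In contralateral tendon Sparc (14.5 TPM ± 3.45, SD, n = 3) and Fn1 (2.22 ± 0.441) led again. Below them came Thbs1 (0.618 ± 0.255), Tgfbi (0.544 ± 0.159), Postn (0.494 ± 0.139) and Thbs2 (0.435 ± 0.159). Their order varied between libraries, but within each library Thbs1 stood above Postn and Thbs2, and Tgfbi above Thbs2. Postn therefore ranked below only Sparc and Fn1 at the tenotomy site, and within this lower group in contralateral tendon. Thbs3 (0.279 ± 0.111), Tnc (0.146 ± 0.0381) and Tnn (0.00523 ± 0.00648) were the lowest there. With protein-coding transcripts alone Tnc and Thbs3 changed places in contralateral tendon, and Tnn and Thbs3 at the tenotomy site. Uninjured replicate 1 had the tenotomy order except that Tgfbi stood above Tnc (1.37 against 1.24 TPM). In uninjured replicate 2 Sparc was at 37.3 TPM, Fn1 at 2.14 and Tgfbi, the next, at 0.885.

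The second comparison set the tenotomy site against tendon of mice without injury. The 9 fitted log2 fold changes lay between 0.25 (Sparc, SE 0.24) and 1.42 (Tnn, SE 1.32), with a median of 0.92 against -0.0147 over all genes. None of the 9 was called by edgeR (0.0% of genes were), none had an unadjusted p under 0.05, and 3.27% of all genes were higher at that unadjusted level. DESeq2 and limma-voom also called 0 of the 9, with no share of all genes given for them. In all 9 both tenotomy libraries lay above both uninjured libraries, as they did in 20.1% of genes tested. With 1 uninjured library left, its spread is assumed to be that of the other groups. Against uninjured replicate 2 alone the fit called 8 of the 9 higher at the tenotomy site, against 11.4% of genes. Tnn then had a log2 fold change of 8.13 (SE 0.49), resting on 3 counts in uninjured replicate 2. Postn had a log2 fold change of 4.82 (SE 0.22), Fn1 3.54 (SE 0.21), Tnc 3.07 (SE 0.19), Thbs1 2.87 (SE 0.32), Thbs2 2.36 (SE 0.25), Thbs3 1.66 (SE 0.18) and Tgfbi 0.71 (SE 0.19). Sparc, at 0.39 (SE 0.16), was the gene not called. Against uninjured replicate 1 alone none of the 9 was called (0.0593% of genes were called higher), and the 9 values lay between 0.12 (Thbs1, SE 0.27) and 0.54 (Tnc, SE 0.16).

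The last comparison set contralateral tendon of injured mice against tendon of mice without injury. All 9 fitted log2 fold changes were negative, from -0.99 (Tgfbi, SE 0.22) to -5.94 (Tnn, SE 1.61), with a median of -1.88 against -0.0121 over all genes. None was called by edgeR (0.0% of genes were), 9 had an unadjusted p under 0.05 (10.5% of genes were lower at that level), and DESeq2 called 8 of the 9 lower (0.849% of genes). In 6 of the 9 every contralateral library lay below both uninjured libraries (16.6% of genes); Thbs1, Fn1 and Tnn overlapped. Under the same assumption for a lone library, Sparc was the 1 gene of the 9 called against uninjured replicate 2 (0.311% of genes were called lower), with a log2 fold change of -1.38 (SE 0.14). The values were then -0.72 for Tgfbi (SE 0.17), -0.66 for Thbs3 (SE 0.19), -0.54 for Postn (SE 0.17), -0.43 for Tnc (SE 0.17) and -0.38 for Thbs2 (SE 0.22). Those of Fn1, Thbs1 and Tnn turned positive, at 0.016 (SE 0.17), 0.25 (SE 0.27) and 0.78 (SE 1.11), the last on 3 counts in uninjured replicate 2. Against uninjured replicate 1 alone all 9 were called lower (15.0% of genes).

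**Figure D2:**
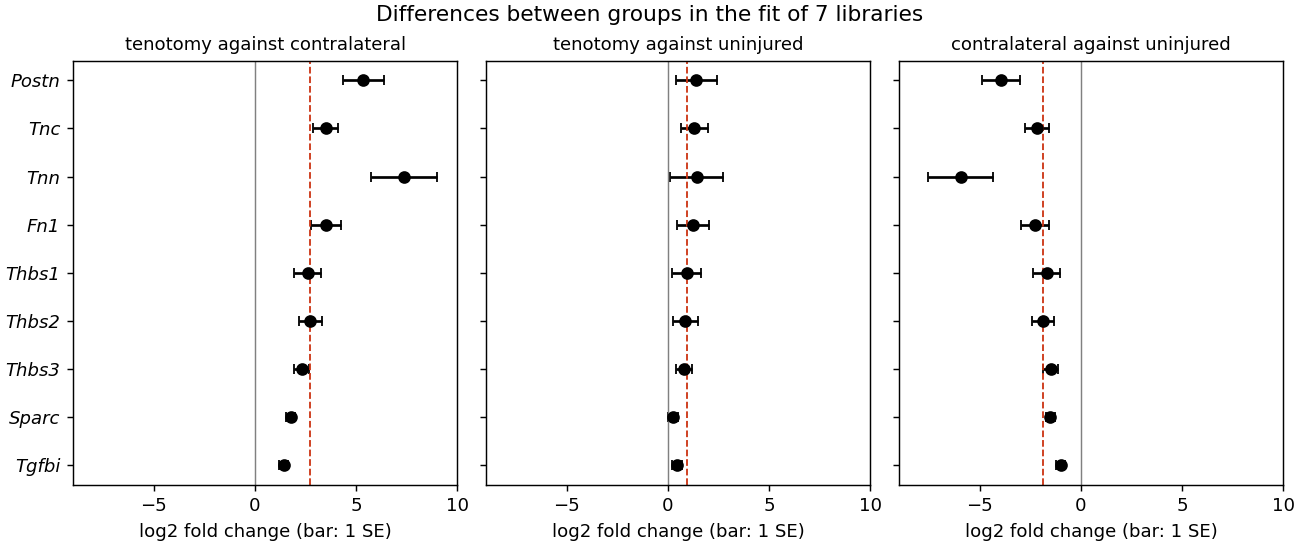
Fitted log2 fold change of each of the 9 genes in the 3 comparisons, with bars of 1 SE, from the fit of all 7 libraries; the solid line is at 0 and the dashed line at the median of the 9 genes. The medians are 2.74, 0.92 and -1.88, and the bars are widest for Tnn and Postn.

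The 3 comparisons share libraries, so the place of each uninjured library was also expressed on a scale from the contralateral mean (0%) to the tenotomy mean (100%) of log2 CPM. Uninjured replicate 1 lay between 84.6% (Tnc) and 95.5% (Thbs1) for all 9 genes, with a median of 91.1%. The median over the 3778 genes that differed by more than 1 log2 unit between tenotomy and contralateral was also 91.1%, so the 9 genes had the place that such genes had in general. Uninjured replicate 2 was spread far more widely, from -7.62% (Thbs1), -1.53% (Tnn) and -0.174% (Fn1) through 10.3% (Postn), 12.4% (Tnc), 14.9% (Thbs2) and 28.5% (Thbs3) to 50.7% (Tgfbi) and 78.2% (Sparc). Its median over the 9 was 12.4%, against 16.5% over the 3778 genes. Of the 1809 genes that were more than 1 log2 unit higher at the tenotomy site, 3.81% stood as high as Sparc or higher in that library. Sparc was named as the highest of the 9, so this share does not measure how unusual it was. The fibrillar collagen genes Col1a1 and Col1a2 also stood high in uninjured replicate 2, at 2214 and 1489 CPM. Both were at 373 to 478 and 337 to 469 CPM in contralateral libraries and at 2565 or more and 1852 or more CPM in tenotomy libraries, whereas Col3a1, at 384 CPM in uninjured replicate 2, was at 1999 and 2011 CPM at the tenotomy site.

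**Figure D3:**
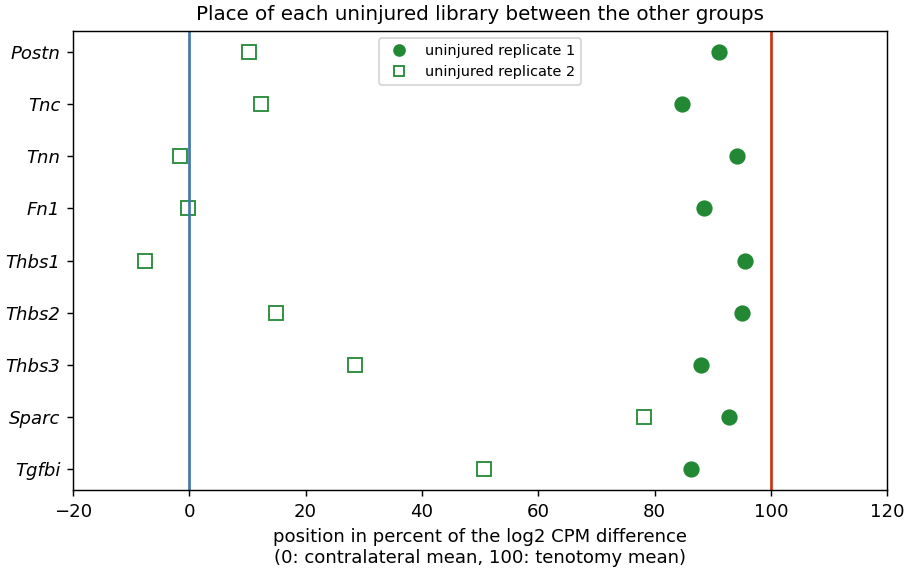
Place of uninjured replicates 1 (filled circles) and 2 (open squares) between the contralateral mean (blue line, 0%) and the tenotomy mean (red line, 100%) of log2 CPM for each gene. Replicate 1 lies at 84.6% to 95.5% for all 9 genes, while replicate 2 lies from -7.62% for Thbs1 to 78.2% for Sparc.

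The number in the sample titles falls into 3 series, which no label calls a batch. All contralateral libraries share the first series with tenotomy replicate 1, the next holds uninjured replicate 1 and tenotomy replicate 2, and the last holds uninjured replicate 2 alone. Within the first series, log2 of the tenotomy to mean contralateral CPM was 5.34 for Postn, 3.47 for Tnc, 3.49 for Fn1, 1.77 for Sparc and 1.48 for Tgfbi. Tenotomy replicate 2, from the next series, gave 5.38, 3.51, 3.55, 1.77 and 1.34 against the same libraries. Within that series the tenotomy library exceeded uninjured replicate 1 by 0.12 (Tgfbi) to 0.56 (Tnc) on the log2 scale. No series held contralateral and uninjured libraries together. A fit with the series as a term compares them through the tenotomy libraries and rests on uninjured replicate 1, since uninjured replicate 2 is alone in its series. It called 9 of the 9 lower in contralateral tendon (7.0% of genes), against 0 without the term.

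Inclusion of the alternative exons was measured as the share of TPM on transcripts that carry the exon among transcripts that carry or skip it. Extra domain A of Fn1 (exon 33) was included at 8.97%, 9.54% and 8.03% in contralateral libraries, 15.8% and 14.5% in tenotomy libraries, and 14.9% and 13.2% in uninjured replicates 1 and 2. Extra domain B (exon 25) was included at 5.85%, 6.27% and 6.83%, then 11.4% and 10.9%, then 11.7% and 7.21% in the same order. Both domains were thus higher in each tenotomy library than in any contralateral library, by 6.28 and 4.83 percentage points on average (exact two-sided permutation p = 0.2 each, the smallest that 2 against 3 libraries allow). The 2 domains are not separate measures, because the only transcript that carries domain B also carries domain A. That transcript held 135 of 204, 230 of 345 and 164 of 192 domain A counts in the contralateral libraries. It held 4226 of 5804 and 3486 of 4586 in the tenotomy libraries. The uninjured libraries lay closer to each other for domain A than for domain B. By counts, uninjured replicate 2 carried domain A in 13.8% of 2369 estimated counts (95% Wilson interval 12.5% to 15.3%) and domain B in 7.68% (6.68% to 8.83%), although its Fn1 level was that of contralateral tendon. Such intervals treat estimated counts as reads and cover counting error only.

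Both Postn exons were less included at the tenotomy site. Exon 17 was included at 35.3%, 36.7% and 36.5% in contralateral libraries, 28.8% and 28.3% in tenotomy libraries, and 28.8% and 23.3% in uninjured replicates 1 and 2. Exon 20 was included at 55.8%, 51.0% and 55.8%, then 37.7% and 37.2%, then 37.6% and 35.2%. The contralateral libraries were the high ones, and neither exon's TPM shares overlapped between contralateral and the other 2 groups. For exon 17 counting error blurs this. Contralateral replicate 1 carried it in 31.9% of 226 counts (95% Wilson interval 26.1% to 38.2%). That interval holds the count shares of the tenotomy libraries (28.8% and 28.5%) and of uninjured replicate 1 (29.2%). The intervals of contralateral replicates 2 and 3 began above these, at 34.1% and 30.3%. The tenotomy mean was below the contralateral mean by 7.66 points for exon 17 and 16.7 points for exon 20 (exact two-sided permutation p = 0.2 each, again the smallest possible). In uninjured replicate 2, which had nearly as little Postn as contralateral tendon, exon 20 was carried by 36.0% of 369 counts (95% Wilson interval 31.3% to 41.1%), against 53.8% to 55.6% of counts in the contralateral libraries, whose intervals began at 47.3% or above. The share of exon 20 thus did not follow the level of Postn in that library.

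Tnc exon 14 was at 0%, 0% and 4.14% in contralateral libraries, 9.99% and 19.3% in tenotomy libraries, and 15.9% and 4.31% in uninjured replicates 1 and 2. The contralateral zeros rest on 219 and 241 counts, with 95% Wilson intervals that reach up to 1.72% and 1.57%. The tenotomy libraries differed from each other by more than the lower one differed from the contralateral mean (1.38%), although both lay above all contralateral libraries (exact two-sided permutation p = 0.2, the smallest possible). In Thbs3, exons 2 and 12 were carried at 94.6% or more in every library (exact two-sided permutation p = 0.8 and 0.2). These 7 exons were the ones tested, and after Benjamini-Hochberg adjustment over them the exact p was 0.233 for 6 and 0.8 for the other, so this design cannot reach 0.05. Where a gene had more than 1 of these exons, a transcript carried both, so those tests were not independent.

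**Figure D4:**
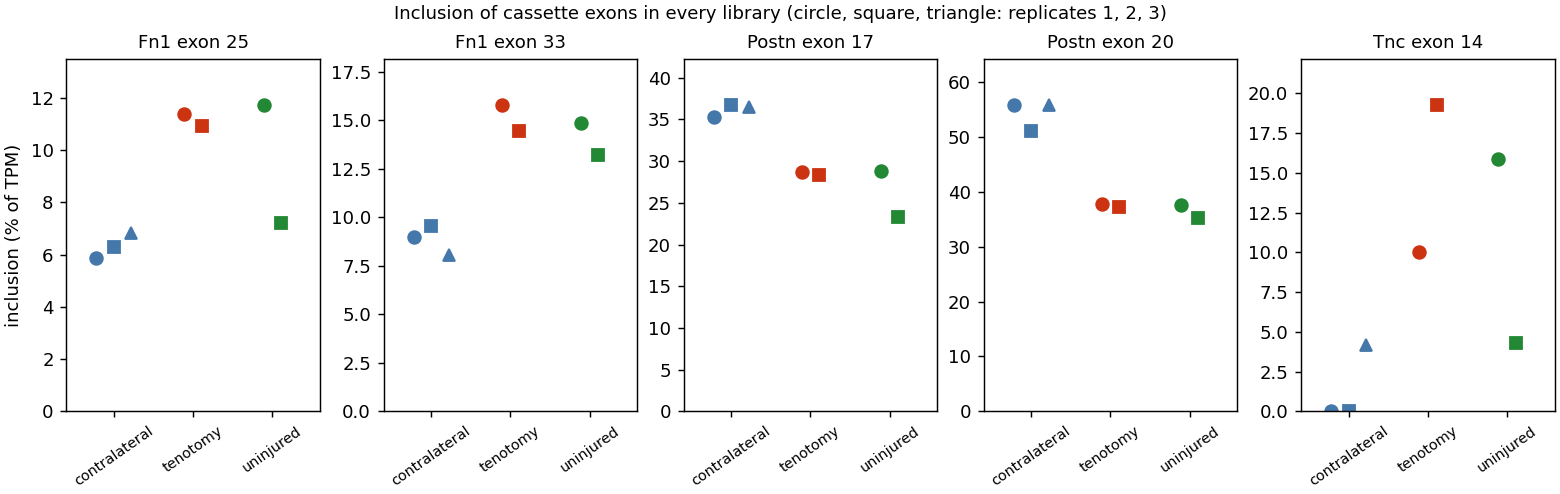
Inclusion of 5 alternative exons in percent of TPM, with 1 point per library and the marker shape giving the replicate number within its group. Both Fn1 exons are higher, and both Postn exons lower, in every tenotomy library than in every contralateral library, while the Tnc exon spreads from 9.99% to 19.3% between the tenotomy libraries.

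Promoter sequence was matched for 7 of the 9 genes in RefSeq (GRCm38.p6); Fn1 and Thbs1 are named only. A set of 5 short motifs were searched on both strands of the 250 bases before and 50 bases after each start. These were the AP-1 site TGANTCA, the SMAD-binding CAGACA, the TEAD-binding GGAATG, the CArG box and the TATA box TATAAA, found in 7.81%, 21.0%, 14.7%, 1.63% and 13.6% of all 32851 windows of that length. The 250 bases before the start are printed for Postn, the gene with the largest fold after Tnn, and for Thbs2, which held 2 matches to CAGACA, with every match in capitals whichever strand it lies on.
Postn, chr3:54360857-54361106, plus strand: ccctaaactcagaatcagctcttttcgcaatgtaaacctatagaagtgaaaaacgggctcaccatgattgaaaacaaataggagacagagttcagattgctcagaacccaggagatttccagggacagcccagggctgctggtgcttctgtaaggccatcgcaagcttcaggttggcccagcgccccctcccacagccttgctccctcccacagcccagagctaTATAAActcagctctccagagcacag
Thbs2, chr17:14694263-14694512, minus strand: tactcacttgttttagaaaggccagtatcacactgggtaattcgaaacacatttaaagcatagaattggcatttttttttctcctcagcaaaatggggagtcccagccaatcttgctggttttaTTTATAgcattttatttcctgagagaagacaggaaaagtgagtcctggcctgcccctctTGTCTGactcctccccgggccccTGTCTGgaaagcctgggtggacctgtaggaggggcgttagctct
The Postn window held TATAAA 26 bases before the start, and the Thbs2 window held CAGACA, read on the other strand, at 67 and 44 bases before the start and TATAAA on the other strand at 126 bases before it. Tnc held TATAAA at 126 bases before the start and CAGACA at 1 place, and Sparc held CAGACA at 2. Tnn had GGAATG at 160 bases before the start, and the windows of Thbs3 and Tgfbi held none of the 5 motifs. AP-1 and CArG letters were found in none of the 7 windows.

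Genes related to the 9 by family, by matricellular function or as their receptors were tested in the same fit, 42 of 44 listed genes having passed the filter. Spock1 and Ccn6, with at most 5 and 2 counts in a library, were removed by it. At the tenotomy site 16 of the 42 were higher and 5 lower than in contralateral tendon (edgeR, adjusted p under 0.05), where 13.6% and 15.4% of all genes were. Of these 42 genes, 33 passed when either uninjured library was left out, 31 with the tenotomy libraries summed into 1 sample and uninjured replicate 1 left out, 0 with them summed and no library left out, and 0 without any 1 contralateral or tenotomy library. No share of all genes is given beside the counts from changed fits, here or in the rest of this paragraph. Nothing about these 42 genes is read from them. Against the uninjured group the count turned on which uninjured library was used. With both, edgeR and limma-voom called 0 of the 42 in either comparison. At an unadjusted p under 0.05 by edgeR, 4 were higher and 3 lower for tenotomy, and 4 higher and 10 lower for contralateral. DESeq2 called 1 for tenotomy and 2 for contralateral. Without uninjured replicate 1, edgeR called 30 for tenotomy and 0 for contralateral; without uninjured replicate 2 it called 0 and 27. With the title series as a term it called 0 and 15.

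Among 12 family relatives, 3 rose and 1 fell, with a median log2 fold change of -0.15. Fstl1, a secreted relative of SPARC, was at 24.6 to 31.6 CPM in contralateral libraries and at 155.2 and 155.7 CPM in tenotomy libraries, and rose by 2.50 log2 units (SE 0.49, edgeR adjusted p = 0.0167). Stab1, a scavenger receptor of macrophages and sinusoidal endothelium that takes up SPARC and has fasciclin domains, rose by 1.29 (SE 0.30, edgeR adjusted p = 0.0205). Smoc2, another SPARC relative, rose by 0.99 (SE 0.21, edgeR adjusted p = 0.0171). Sparcl1, the closest relative of Sparc, fell by 0.86 (SE 0.23, edgeR adjusted p = 0.0304), from 39.1 to 45.8 CPM in contralateral libraries to 23.0 and 24.6 CPM in tenotomy libraries. Sparc and Sparcl1 therefore had opposite signs. The other pentameric thrombospondins, Thbs4 and Comp, did not pass (log2 fold changes 1.08, SE 0.34, and 0.81, SE 0.34, edgeR adjusted p = 0.0513 and 0.104).

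Among 14 other matricellular genes, 6 rose and 1 fell, with a median of 0.83. Ccn4, a secreted CCN protein induced by Wnt signalling, rose by 3.21 log2 units (SE 0.51, edgeR adjusted p = 0.0167), from 0.518 to 0.822 CPM in contralateral libraries to 6.50 and 6.69 CPM at the tenotomy site. Lgals3, the macrophage-rich lectin galectin-3, rose by 2.37 (SE 0.44, edgeR adjusted p = 0.0167). Ccn5 rose by 1.83 (SE 0.44, edgeR adjusted p = 0.0217). Fbln2, Fbln5 and Lgals1 were the other 3 that rose. Ibsp, encoding bone sialoprotein of mineralising tissue, went the other way. It was at 8.40, 5.78 and 4.02 CPM in contralateral libraries, 0.0816 and 0.10 CPM in tenotomy libraries and 0.611 and 2.37 CPM in uninjured replicates 1 and 2, and fell by 6.01 log2 units (SE 0.77, edgeR adjusted p = 0.0167). The tenotomy values lie near the floor, so the size of this fall rests on few counts there. Osteopontin (Spp1), a related secreted phosphoprotein, was at 9.56 to 13.9 CPM in contralateral and at 47.9 and 47.8 CPM in tenotomy libraries and missed the threshold (log2 2.11, SE 0.68, edgeR adjusted p = 0.0525).

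Among 16 receptor genes, 7 rose and 3 fell, with a median of 0.57. Ptprz1, a receptor phosphatase that binds tenascins, rose by 1.83 log2 units (SE 0.40, edgeR adjusted p = 0.0181) but stayed at 1.04 and 0.970 CPM at the tenotomy site. Sdc1, the heparan sulphate proteoglycan syndecan-1, rose by 1.50 (SE 0.26, edgeR adjusted p = 0.0167). Itgb3, the β3 integrin chain of the vitronectin receptor, which periostin and fibronectin also engage, rose by 1.48 (SE 0.28, edgeR adjusted p = 0.0167). Itga5, the α chain of the classical fibronectin receptor, Calr, Lrp1 and Itgb5 were the other 4 that rose. Itgb6, the β6 chain of an integrin that activates latent TGF-β, fell by 2.49 (SE 0.49, edgeR adjusted p = 0.0167), from 7.58 to 9.43 CPM to 1.66 and 1.39 CPM. Cd36, a thrombospondin receptor that also takes up fatty acids in muscle and fat, fell by 1.81 (SE 0.46, edgeR adjusted p = 0.0254), and Itga8, an integrin chain that pairs with β1 and binds fibronectin and tenascins, fell by 1.03 (SE 0.26, edgeR adjusted p = 0.0242). Cd47, the other well-known thrombospondin 1 receptor, did not pass (log2 0.61, SE 0.21, edgeR adjusted p = 0.0602).

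**Figure D5:**
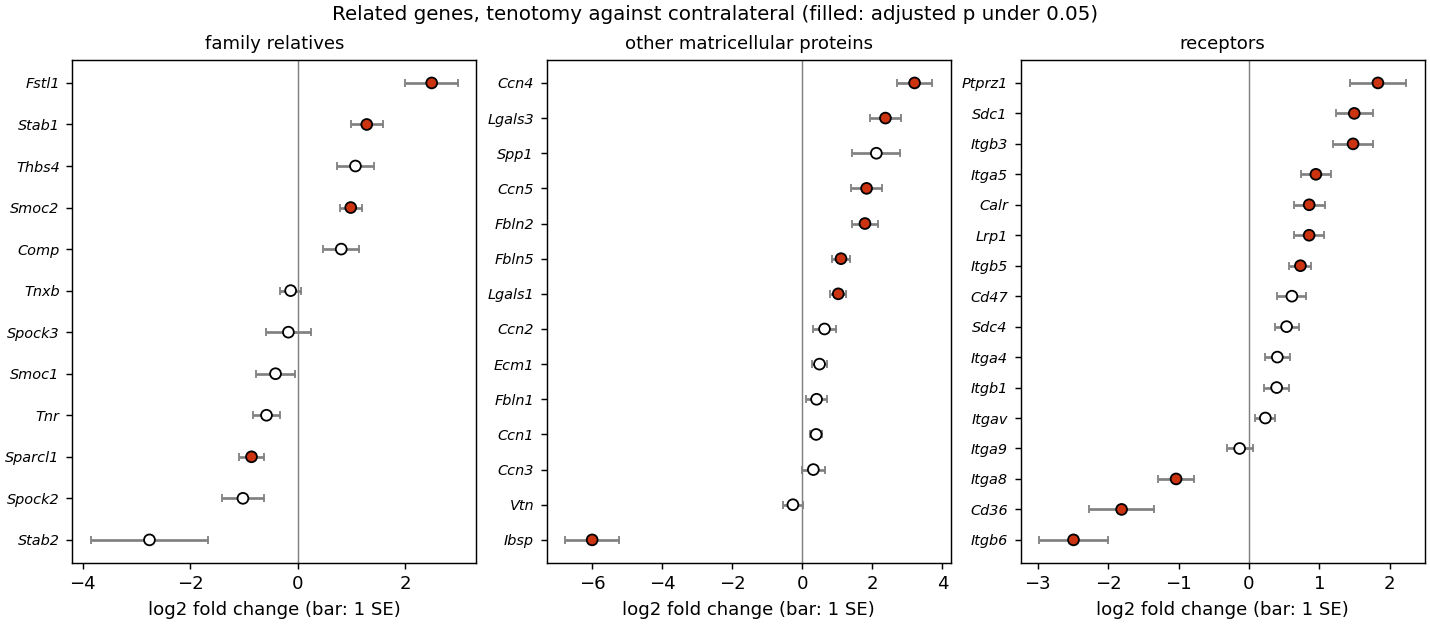
Log2 fold change, tenotomy against contralateral, of the 42 related genes tested, in 3 panels by list, with bars of 1 SE and filled points where the edgeR adjusted p was under 0.05. Ccn4 (3.21) and Fstl1 (2.50) lie at the high end of their lists and Ibsp (-6.01) and Itgb6 (-2.49) at the low end.

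The profile most like each gene over the 7 libraries was sought among 2000 genes with a mean log2 CPM of at least 3, by the root mean square difference of centred log2 CPM. Postn lay nearest to Mmp14, a membrane-bound collagenase (0.68), Lum, the collagen-fibril proteoglycan lumican (0.69), and Fn1 (0.85). Tnc lay nearest to the collagen genes Col11a1 (0.17) and Col8a1 (0.19) and to Fn1 (0.22), and Fn1 to Col8a1 (0.18), Lum (0.18) and Aspn (0.18). Thbs1 was nearest to Col12a1 (0.10), Runx1 (0.15) and Thbs2 (0.21), and Thbs2 to Aebp1 (0.12), Ctsk (0.14) and Bgn (0.15). Sparc was nearest to Lox (0.18), which crosslinks collagen, Col1a2 (0.22) and Loxl2 (0.23), and Thbs3 to Col6a1 (0.13), Marcks (0.16) and Igfbp4 (0.18). Tgfbi was nearest to Rin2 (0.13), Arf4 (0.14) and Fkbp9 (0.14). Tnn had no close neighbour among the genes searched, Postn being the nearest at 1.22, followed by Lum (1.82) and Mmp14 (1.88). Its own mean log2 CPM was below 3, so genes of its level were not searched. Its low values rest on 1 to 14 counts in contralateral libraries and 3 in uninjured replicate 2. Of the 9 genes, the pairs Thbs1 with Thbs2 (0.21), Tnc with Fn1 (0.22) and Sparc with Tgfbi (0.26) were the closest to each other.

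Markers of several cell types moved with the same libraries. The labelled tissue was tendon, and the tendon markers Scx and Tnmd were present in every library. Of 6 tendon markers 4 were called higher at the tenotomy site and 0 lower, with sums of 87.8 to 157.5 CPM in contralateral libraries, 161.3 and 157.6 CPM in tenotomy libraries, and 140.8 and 168.5 CPM in uninjured replicates 1 and 2. The 10 skeletal muscle markers summed to 20846 to 22695 CPM in contralateral libraries, 1711 and 1712 CPM in tenotomy libraries, 2190 CPM in uninjured replicate 1 and 15160 CPM in uninjured replicate 2, and 10 of 10 were called lower at the tenotomy site. Of 6 fibroblast markers 5 were called higher, with sums of 1037 to 1327 CPM, then 6647 and 6654 CPM, then 6094 and 4280 CPM. Col1a1 and Col1a2, at 2214 and 1489 CPM, made up most of the sum in uninjured replicate 2. Col3a1 (384 CPM) and Pdpn (1.34 CPM) stood closer to the contralateral than to the tenotomy libraries there. All 7 macrophage and leukocyte markers were called higher, with sums of 27.2 to 33.5 CPM, then 118.9 and 121.5 CPM, then 122.7 and 33.9 CPM. The cartilage markers summed to 12.4 to 17.6 CPM in contralateral libraries, 358.8 and 358.9 CPM in tenotomy libraries, 171.7 CPM in uninjured replicate 1 and 26.3 CPM in uninjured replicate 2. At the tenotomy site 5 of 6 were called higher, and Matn1 was at or near 0 throughout. Col2a1 was at 16.6 CPM in uninjured replicate 1, against 126.1 and 125.4 CPM in tenotomy libraries. Col11a1 differed less, at 104.2 CPM against 137.9 and 133.3 CPM. Platelet markers, of interest because platelets store thrombospondin 1 and SPARC, summed to 1.95 to 2.22 CPM in contralateral and 2.94 and 3.17 CPM in tenotomy libraries, with 1 of the 3 tested called higher and Ppbp and Gp9 near 0. Pericyte and smooth muscle markers, of which 4 of 5 were called lower and 1 higher, summed to 354.1 to 366.0 CPM in contralateral, 100.4 and 103.8 CPM in tenotomy, and 109.3 and 260.7 CPM in uninjured libraries. Adipocyte markers (2 of 4 lower) summed to 51.0 to 59.7 CPM, then 20.3 and 21.4 CPM, then 16.3 and 57.3 CPM. Schwann cell markers had lower sums at the tenotomy site (91.5 to 104.2 CPM, then 64.2 and 66.6 CPM, then 45.9 and 148.9 CPM), although 2 of 4 were called higher and 0 lower. Endothelial markers (1 of 5 lower) summed to 43.7 to 60.5 CPM over the 7 libraries. The part of these cell types in the levels of the 9 genes was not tested.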

How the data were processed

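RNA was purified from hindlimb tendon with Trizol and a column and made into libraries with a TruSeq kit, per the labels' protocols. Per the submitters' processing notes, FastQC 0.11.4 and kallisto were used and the build named is GRCh38, although the transcript IDs are mouse Ensembl IDs. The deposited estimated counts are per transcript and not normalized, and the deposited TPM are scaled by effective length, per the file headers. Of 103639 transcripts, 101510 matched GENCODE M21 (GRCm38) without the ID version. The 9 genes and all lists were chosen with earlier results of these data known.

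Estimated counts were summed per gene and rounded. Low genes were removed with filterByExpr (minimum count 10), and edgeR 4.0.16 (R 4.3.3) fitted the 3 group means to all 7 libraries together, with TMM scaling and its quasi-likelihood test. CPM use TMM-scaled totals, and log2 CPM a prior count of 2. P-values were adjusted over all 16028 genes by the Benjamini-Hochberg method, with a threshold of 0.05. The SE of a log2 fold change is |log2 fold change| over the root of its F statistic. With no separate animals named, p-values measure only the spread between these libraries.

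An alternative exon was an internal exon carried by 1 or more and skipped by 1 or more protein-coding transcripts. It needed 20 or more estimated counts on both together in every library, and up to 2 exons per gene were kept. How kallisto divided reads between isoforms of a gene enters these shares but not gene totals. Named related genes were up to 3 per list and direction past the threshold, by size of change, and genes named beyond these were chosen after their values were seen. Alternatives were other scalings, DESeq2 1.42.0, limma-voom (limma 3.58.1), no filter, only the groups compared, length-scaled TPM, the title series, protein-coding transcripts alone, no muscle markers, a threshold of 0.1 and leaving out each library. Summing the tenotomy libraries was added after seeing the data. Scripts were tested on simulated data.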

Additional observations from a re-analysis of the deposited data

How the results depend on the processing

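No paired analysis was possible because replicate numbers were given in accession order and pair no libraries. For tenotomy against contralateral, the number of the 9 genes called ranged from 0 to 9 when single libraries were left out and was 0 with the tenotomy libraries summed; it was 8 with limma-voom and 9 under the other planned settings that kept the libraries compared. For tenotomy against uninjured it ranged from 0 to 8 when single libraries were left out and was 8 with the tenotomy libraries summed and uninjured replicate 1 left out. For contralateral against uninjured it was 8 with DESeq2 (0.849% of genes were called lower) and 9 with the title series (7.0%). It was 8 without the filter and 0 when any 1 contralateral library was left out. The fits against a single uninjured library are given with their shares in the last comparison above. Of the related genes, 32 were called for tenotomy against contralateral in a fit of only those groups, 0 with the tenotomy libraries summed, and 0 to 33 when single libraries were left out. For tenotomy against uninjured 1 was called with DESeq2, 1 without the filter, 24 with the tenotomy libraries summed and uninjured replicate 1 left out, and 0 to 30 when single libraries were left out. For contralateral against uninjured 2 were called with DESeq2, 4 without the filter, 15 with the title series, and 0 to 27 when single libraries were left out. Apart from the shares just given, no share of all genes stands beside these counts, and nothing is read from them about the 9 or the related genes. The cause of these shifts was not tested. Contralateral against uninjured changed sign without uninjured replicate 1 for Tnn, Thbs1 and Fn1, whose log2 fold changes ranged from -7.66 to 0.78, -2.49 to 0.25 and -3.11 to 0.016 when single libraries were left out. The inclusion difference of Thbs3 exon 2, -2.68 points, became 0 without tenotomy replicate 1 and lay between -5.37 and 0 when single libraries were left out; the other 6 exons kept their direction in every setting tried. With protein-coding transcripts alone 2 genes changed place in the level order of contralateral and 2 in that of tenotomy, and with counts per kilobase 2 did in uninjured. Depth limits Tnn in the contralateral libraries (1 to 14 counts), Ibsp in the tenotomy libraries, and Tnc exon 14.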
